A study of Mus musculus with 24 samples.

Results

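Mouse hepatocytes that carried a hairpin RNA against FOXA2 and were given glucagon were set against the same cells given insulin, both with DMSO as solvent. The members were chosen from the labels: the 3 arrays with the FOXA2 hairpin, glucagon and DMSO and the 3 with that hairpin, insulin and DMSO, which make 6 of the 24 arrays of the series. All 22180 genes with a single gene symbol were compared on them. The glucagon group had shFOXA2.3 adenovirus and 100 nM glucagon for 4 h, and the insulin group the same virus and 1 nM insulin for 4 h. Per the labels, all cells were primary hepatocytes of male C57Bl6J mice, virus was given at a multiplicity of infection of 5, and the medium held 100 nM dexamethasone, a synthetic glucocorticoid. The other groups had GW4064 at 2 µM, an agonist of the bile acid receptor FXR, in place of DMSO, or a hairpin (shlacZ) against bacterial lacZ, which has no mouse target, in place of shFOXA2.3 (here shFOXA2). Biotinylated DNA from 300 ng of total RNA was read on Affymetrix MoGene 2.0 ST arrays.

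The labels number the arrays as experiments 1 to 3. Each experiment used cells pooled from 3 mice, per the series' design text. A glucagon array and an insulin array of 1 experiment thus came from 1 cell pool. The fit took out the level of each experiment, so p-values rest on the spread between pools that then remained. That spread was estimated over all groups of the series, shlacZ and GW4064 included. An SE is therefore not the spread of the shFOXA2 DMSO pairs alone. No group lacked both hormones, so the data do not separate induction by glucagon from repression by insulin. Rose and fell below describe glucagon against insulin. The hairpin was 1 sequence against FOXA2, and the cells are a short-term culture outside the liver.

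Glucagon is the hormone of fasting. Its receptor raises cyclic AMP, which releases the active subunit of protein kinase A, and that kinase switches on CREB and holds back the salt-inducible kinases, so that CREB and its CRTC coactivators turn on gluconeogenic genes. Insulin, the hormone of the fed state, acts through the insulin receptor, IRS proteins and AKT to keep the FOXO factors out of the nucleus. FOXA2 is a forkhead factor that opens chromatin at liver genes, and it is known in liver as a regulator of fasting genes.

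Levels are log2 values as deposited. Differences are given on that log2 scale with the standard error (SE), so that 1 unit is a doubling. A gene was called where its p-value, adjusted over all 22180 genes, was under 0.05. The olfactory receptor genes, which hepatocytes are not known to transcribe, served as a gauge of background: their 1105 genes had a median level of 2.78 on the 6 arrays, and the 95th percentile was 3.72. Over all 24 arrays, where that percentile was 3.70, 9625 genes (43.4%) had a mean above it. Medians of the 6 arrays were between 3.23 and 3.26. Arrays of a group correlated at r = 0.987 to 0.993 under glucagon and 0.986 to 0.992 under insulin across genes, which are not independent replicates.

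Foxa2, the target of the hairpin, had levels of 7.04, 6.82 and 7.21 with shFOXA2 in experiments 1 to 3 under glucagon, against 7.46, 7.72 and 7.24 with shlacZ. Under insulin it had 5.70, 5.54 and 6.08 with shFOXA2, against 6.30, 6.28 and 6.22 with shlacZ. The shFOXA2 array was the lower of the pair in all 3 experiments under both hormones, and the gap was smallest in experiment 3, at −0.03 under glucagon and −0.14 under insulin. The difference between hairpins was −0.45 (SE 0.14, adjusted p = 0.501) under glucagon and −0.49 (SE 0.14, adjusted p = 0.567) under insulin. Neither passed the test across all genes. That adjustment is stricter than a test of Foxa2 alone, the gene the hairpin was made against. The missing calls therefore do not show that the hairpin left Foxa2 unchanged. Within shFOXA2 cells, Foxa2 itself rose under glucagon by 1.25 (SE 0.14, adjusted p = 2.9e-06), and with shlacZ by 1.21. The 3 glucagon arrays were all above the 3 insulin arrays, so the gap between hormones exceeded the gap between hairpins.

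The hepatocyte markers were high in both groups. Albumin (Alb) had 13.12, 13.09 and 13.04 under glucagon, against 13.10, 13.19 and 13.11 under insulin, and transthyretin (Ttr) had 11.14, 10.77 and 11.02, against 10.92, 10.52 and 11.10. The groups overlapped for both genes, and neither passed the test. Of 12 hepatocyte markers, 3 were called higher (Cps1, Hnf4a and Tdo2) and 0 lower, beside 5.32% and 5.96% of all genes, and 0 of the 3 were called without pairing the arrays by experiment. In bulk RNA, fewer cells of a type and less RNA per cell cannot be told apart. Pck1, G6pc, Etnppl and Rrad were chosen to mark the hormone difference with earlier results of these data known, so their values, which follow, are a description.

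**Figure D1:**
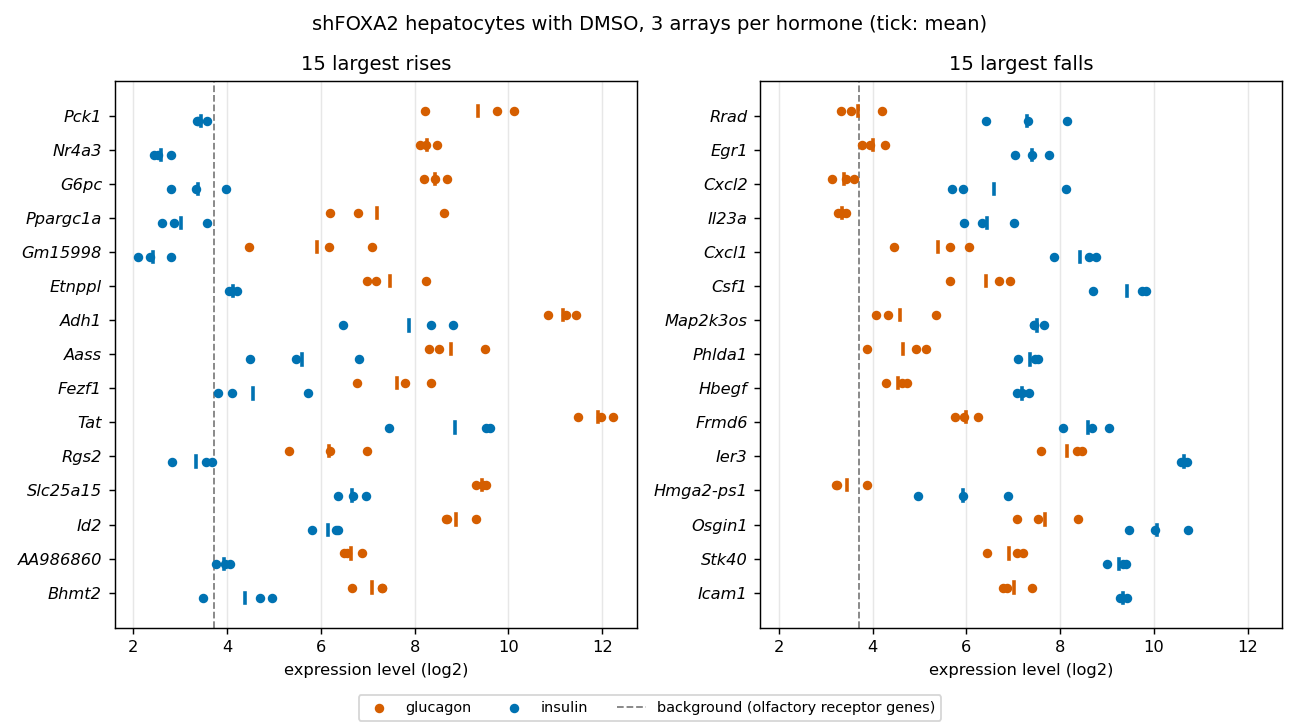
Levels (log2, horizontal axis) of the 15 genes with the largest rise (left) and the largest fall (right) under glucagon, with 1 point per array, a tick at the mean of 3 and a dashed line at the background of 3.72. For each of these 30 genes the glucagon points and the insulin points lie apart.

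Of the 22180 genes, 2500 (11.3%) differed between glucagon and insulin, with 1179 (5.32%) higher and 1321 (5.96%) lower under glucagon. Of these, 524 higher genes (2.36%) and 530 lower genes (2.39%) differed by over 1.5-fold, and 39 higher and 27 lower genes by over 4-fold. The sign was the same in all 3 experiments for 2472 of the 2500, which a call on the same arrays favours, and for 37.5% of all genes. A fit that did not pair the arrays by experiment (without the block) called 1062 of them, 470 higher and 592 lower. Leaving out experiment 1, 2 or 3 left 1357, 1296 or 1879 calls. All 3 glucagon arrays were above all 3 insulin arrays for 7.49% of all genes and below them for 9.25%. The calls in each gene list below are to be read beside the 5.32% higher and 5.96% lower of all genes. The lists were written with earlier results of these data known, and Pck1, G6pc, Etnppl and Rrad are among their members. The counts per list are therefore a description, and a gene can be in more than 1 list. The plot of levels by array shows the largest changes. Among the higher genes, 209 had an insulin mean at background, and 104 of these were at background in both groups. Among the lower genes, 124 had a glucagon mean at background, 73 of them in both groups. The floor of the arrays limits how low such a mean could read, so these differences give no exact fold. Among the genes described below, this holds for the insulin means of Pck1, Nr4a3, G6pc, Ppargc1a, Onecut1, Pde10a and Gys2 and the glucagon means of Rrad, Cxcl2, Il23a and Spry1.

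Of the 10 genes of gluconeogenesis measured, 6 were higher, 0 were lower and 4 did not pass, and the median difference was 0.71, against −0.01 over all genes. Without the block, 4 of the 6 were called. Pck1, which makes phosphoenolpyruvate from oxaloacetate, had levels of 10.11, 8.22 and 9.75 under glucagon, against 3.36, 3.39 and 3.58 under insulin. All 3 insulin arrays lay at background, the glucagon array of experiment 2 was the lowest of its group, and the groups did not overlap. The difference in level was 5.92 (SE 0.39, adjusted p = 2.3e-09). G6pc, the catalytic subunit that releases free glucose, had 8.69, 8.21 and 8.44 under glucagon, against 3.35, 2.80 and 3.98 under insulin. Again the groups did not overlap, and the difference was 5.07 (SE 0.37, adjusted p = 1.1e-08). Fbp1, the fructose bisphosphatase, had 6.60, 5.79 and 6.92 under glucagon, against 5.86, 5.08 and 5.51 under insulin. Its groups overlapped across experiments, but the glucagon array was the higher in each, and the rise of 0.95 (adjusted p = 5.5e-04) was lost without the block. Pcx, the pyruvate carboxylase that starts the pathway in mitochondria, differed by 0.00 (SE 0.12, adjusted p = 0.997), with a 95% interval of −0.25 to 0.26. Got1, the cytosolic aspartate aminotransferase, rose by 1.61 and Gpt2, the mitochondrial alanine aminotransferase, by 1.07.

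Of 30 measured genes of the cAMP pathway itself, 8 were higher and 3 were lower, beside 5.32% and 5.96% of all genes. The other 19 had no call, and 11 of the 30 lay at background in both groups. Gcgr, the glucagon receptor, had 3.39, 3.20 and 3.12 under glucagon, against 3.43, 2.64 and 3.46 under insulin, all below 3.72 and with overlapping groups. Sik1, a salt-inducible kinase that restrains CRTC coactivators, rose by 2.13 (SE 0.10, adjusted p = 4.8e-11), with 9.38, 9.27 and 9.05 under glucagon, against 7.19, 6.92 and 7.22 under insulin. Adenylyl cyclase Adcy9 rose by 1.40, and the phosphodiesterases Pde10a and Pde3b, which break down cyclic nucleotides, by 1.00 and 0.93. Prkacb, a catalytic subunit of protein kinase A, fell by 0.52 (SE 0.07, adjusted p = 2.8e-05). Its glucagon arrays, at 7.13, 7.04 and 6.99, lay below its insulin arrays, at 7.58, 7.56 and 7.60. The anchoring protein Akap12 fell by 0.67 and Creb1 by 0.34, and both calls were lost without the block.

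Among 16 transcription regulators that cyclic AMP is known to induce, 8 were higher and 1 was lower, with a median of 0.37, and 5 higher and 1 lower without the block. Nr4a3, an orphan nuclear receptor of the immediate response to cyclic AMP, had 8.11, 8.24 and 8.47 under glucagon, against 2.54, 2.82 and 2.45 under insulin. The insulin arrays lay at background, the arrays within each group were close together, and the difference of 5.67 (SE 0.15, adjusted p = 1.7e-15) had the smallest p of all genes. Ppargc1a, the coactivator PGC-1α, had 6.78, 6.19 and 8.64 under glucagon, against 2.87, 2.61 and 3.58 under insulin. Experiment 3 was the highest in both groups, and the rise was 4.18 (SE 0.20, adjusted p = 4.8e-11). Klf15, a factor of fasting amino acid use, rose by 2.16 and Nr4a1 by 1.91. Hes1, a repressor downstream of Notch, was the member that fell, by 1.62 (SE 0.23, adjusted p = 4.7e-05), with 4.72, 4.89 and 5.07 under glucagon, against 6.70, 6.79 and 6.05 under insulin.

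The promoters of Pck1, Nr4a3 and Ppargc1a are shown because these are 3 of the 4 largest differences among higher genes and each holds TGACG, the shorter form of the cAMP response element that CREB binds. Each sequence runs 5′ to 3′ on the gene's strand from 250 bases before the start to 50 after it, from RefSeq on GRCm38.p6. Capitals mark TGACG, or CGTCA where it is on the other strand. The promoters are Pck1 at chr2:173152823-173153122 (plus strand), Nr4a3 at chr4:48045055-48045354 (plus) and Ppargc1a at chr5:51567676-51567975 (minus).
Pck1: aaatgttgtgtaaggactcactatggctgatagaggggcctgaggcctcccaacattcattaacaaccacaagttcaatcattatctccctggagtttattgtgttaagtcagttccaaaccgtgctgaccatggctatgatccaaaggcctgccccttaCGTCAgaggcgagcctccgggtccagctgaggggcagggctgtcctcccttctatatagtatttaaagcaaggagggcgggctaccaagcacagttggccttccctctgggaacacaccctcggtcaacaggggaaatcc
Nr4a3: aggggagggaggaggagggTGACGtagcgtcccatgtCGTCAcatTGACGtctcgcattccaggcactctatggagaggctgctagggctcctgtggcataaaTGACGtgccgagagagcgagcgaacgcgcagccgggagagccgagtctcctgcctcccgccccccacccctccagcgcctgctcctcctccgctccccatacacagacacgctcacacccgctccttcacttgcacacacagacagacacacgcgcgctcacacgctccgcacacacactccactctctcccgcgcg
Ppargc1a: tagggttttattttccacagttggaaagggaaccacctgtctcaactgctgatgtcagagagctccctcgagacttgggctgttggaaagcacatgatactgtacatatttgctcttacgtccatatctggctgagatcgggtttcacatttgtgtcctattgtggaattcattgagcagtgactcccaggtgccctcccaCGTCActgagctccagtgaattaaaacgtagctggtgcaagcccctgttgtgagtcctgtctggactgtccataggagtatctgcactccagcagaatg
The match lies 90 bases before the start in Pck1 and 49 before it in Ppargc1a. Nr4a3 has 4 matches, the first of them 231 bases before the start. They were picked for the match: of the 15 largest rises, all with a promoter sequence, 5 hold TGACG. Of the 9 largest falls with a promoter sequence, 2 hold it. TGACG was in 24.3% of the promoters of genes over 4-fold higher and in 42.9% of those of genes over 4-fold lower. It was in 29.8% of the promoters of all higher genes, in 30% of those of all lower genes and in 24.2% of all promoters. The full element, TGACGTCA, was in 0% of the promoters of genes over 4-fold higher and 9.52% of those of genes over 4-fold lower. A match thus describes these sequences and does not mark a binding site.

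Of 21 genes of insulin signalling and FOXO targets, 10 were higher, 0 were lower and 11 did not pass, with a median of 0.32 and with 7 higher without the block. Irs2, an adaptor of the insulin receptor and a known FOXO target, had 8.02, 7.48 and 7.85 under glucagon, against 5.55, 5.51 and 5.30 under insulin. No arrays overlapped, and the rise was 2.33 (SE 0.20, adjusted p = 1.6e-07). Igfbp1, a secreted binding protein that insulin is known to repress, rose by 1.67 (SE 0.17, adjusted p = 8.8e-07), and Ccng2, another FOXO target, by 1.45. Insr, the insulin receptor, rose by 0.48 (SE 0.09, adjusted p = 0.0014), but was not called without experiment 1 or without experiment 2.

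Amino acid breakdown and the urea cycle held 13 higher and 0 lower genes of 24, with a median of 1.05, and 6 were called without the block. Etnppl, a phosphoethanolamine lyase, had 7.18, 7.0 and 8.25 under glucagon, against 4.04, 4.10 and 4.22 under insulin. Its groups lay apart, with experiment 3 the highest under glucagon, and the rise was 3.36 (SE 0.24, adjusted p = 1.0e-08). Aass, the first enzyme of lysine breakdown, had 8.52, 8.31 and 9.50, against 5.46, 4.49 and 6.82, and rose by 3.19 (SE 0.27, adjusted p = 1.2e-07). Tyrosine aminotransferase, Tat, had 12.23, 11.49 and 11.98 under glucagon, against 9.61, 7.46 and 9.53 under insulin, and rose by 3.03 (SE 0.27, adjusted p = 1.7e-07). The insulin array of experiment 2 was the lowest for both Aass and Tat. Slc25a15, the mitochondrial ornithine carrier of the urea cycle, rose by 2.76 (SE 0.14), with 9.53, 9.32 and 9.46 under glucagon, against 6.36, 6.68 and 6.97 under insulin. Cps1, the entry enzyme of the urea cycle, rose by 1.27, and Tdo2, the first enzyme of tryptophan breakdown, by 1.76, and both calls were lost without the block.

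The list of amino acid transport, which also holds the mitochondrial carriers Slc25a25 and Slc25a47, had 4 higher and 3 lower genes of 18, of which 2 and 2 were called without the block. Slc7a2, which carries cationic amino acids, rose by 2.28 (SE 0.19, adjusted p = 7.8e-08), and its lowest glucagon array, at 10.63, was above its insulin arrays at 8.12, 8.73 and 8.76. Slc16a10, a carrier of aromatic amino acids, rose by 0.78. Slc1a4, a carrier of alanine and serine, fell by 1.35 (SE 0.12, adjusted p = 1.8e-07), and Slc7a5, the large neutral carrier, by 1.18 (SE 0.13, adjusted p = 2.9e-06). The groups did not overlap for any of these 4 genes.

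Fatty acid oxidation and ketogenesis had 17 measured genes, of which 4 were higher and 1 lower, and 2 and 1 without the block. Cpt1a, the carrier step that admits fatty acids to mitochondria, had 10.39, 10.27 and 9.88 under glucagon, against 8.28, 8.04 and 8.34 under insulin. It rose by 1.96 (SE 0.11, adjusted p = 1.8e-10) with no overlap. Ppara, the receptor that drives this pathway, rose by 0.65 (SE 0.14, adjusted p = 0.0025). Angptl4, a secreted inhibitor of lipoprotein lipase, fell by 1.91 (SE 0.14, adjusted p = 2.3e-08), with 7.87, 7.72 and 7.70 under glucagon, against 9.82, 9.68 and 9.50 under insulin. Of 19 lipogenic genes, 5 were higher and 1 lower, and 3 and 0 without the block: the phosphatidate phosphatases Lpin1 and Lpin2 rose by 1.58 and 1.18 (Lpin2 by 1.86 where its probe sets were averaged) and Gpam, which starts glycerolipid synthesis, by 0.86. Dgat2, the last step of triglyceride synthesis, was the member that fell, by 0.66, but by 0.36 without the glucagon array of experiment 3, where it was not called; nor was it called without the block. Cholesterol genes had 6 higher and 0 lower of 14, Insig1 at 0.66 the largest of them, and 0 of the 6 were called without the block. Adh1, an alcohol dehydrogenase outside these lists, had 11.44, 10.84 and 11.22 under glucagon, against 8.36, 6.47 and 8.82 under insulin. Its rise of 3.29 (SE 0.34, adjusted p = 1.4e-06) was 1.82 where the probe sets of a gene were averaged.

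Of 14 genes of glucose uptake and glycolytic control, 4 were higher and 1 lower. Pfkfb2, a kinase and phosphatase that sets fructose 2,6-bisphosphate, rose by 2.24 (SE 0.16, adjusted p = 6.8e-09), with 7.06, 6.70 and 7.32 under glucagon, against 4.92, 4.35 and 5.10 under insulin. It was the only one of these 5 that was called without the block, where Hk2 (−0.51), Gckr, Pdk1 and Pdk2 were not. Pklr, the liver pyruvate kinase, had 9.30, 8.89 and 8.37 under glucagon, against 9.57, 8.95 and 8.93 under insulin. It was lower under glucagon in each experiment, but the difference of −0.30 (SE 0.10, adjusted p = 0.073) did not pass. Glycogen genes had 4 higher and 0 lower of 12, including Gys2, the liver glycogen synthase, at 0.76 and Pygl, the liver phosphorylase, at 0.45, and 0 were called without the block.

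**Figure D2:**
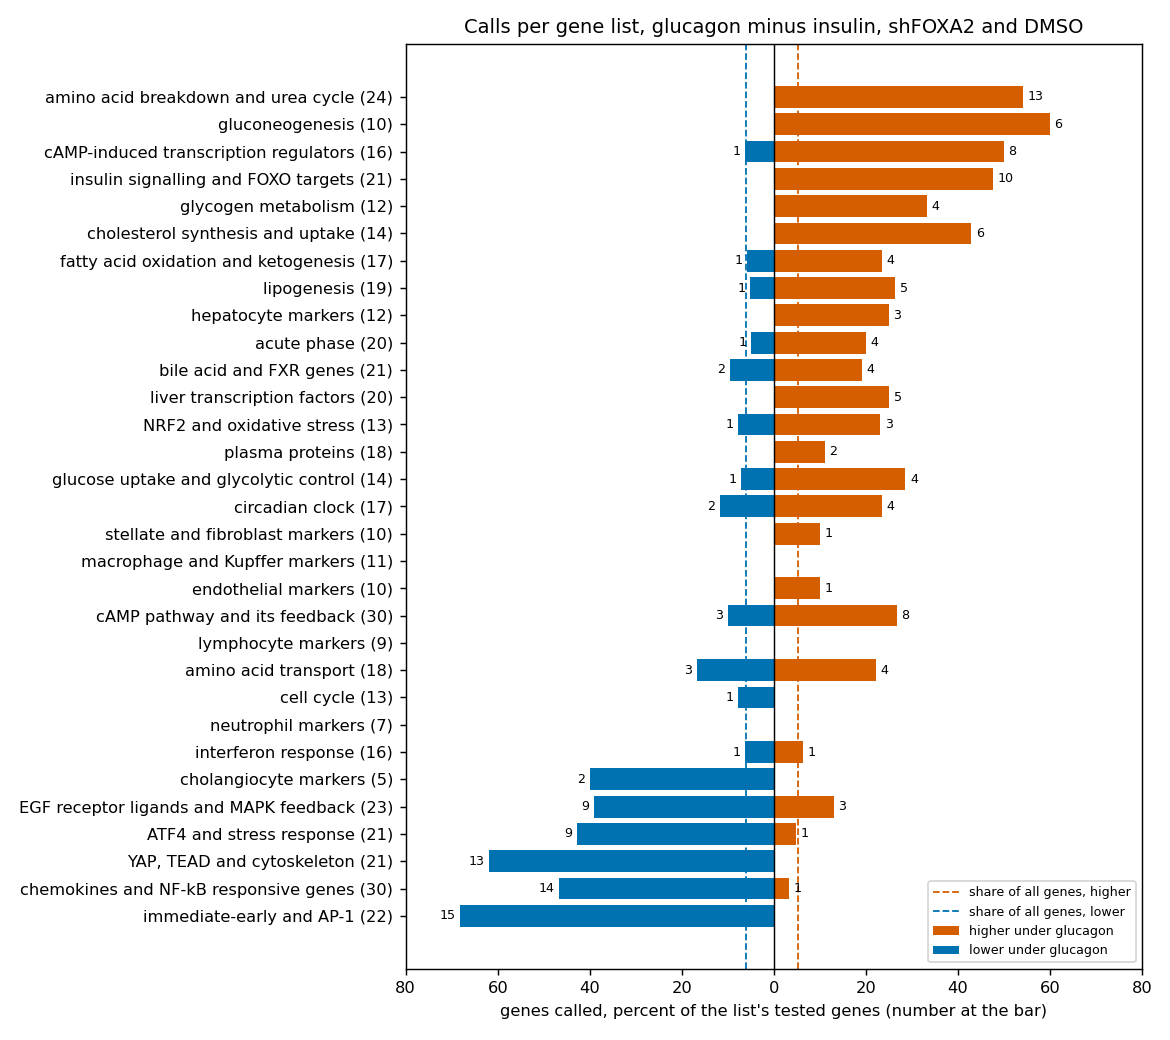
Share of each list's measured genes (percent; number measured in parentheses) called higher under glucagon (right) or lower (left), with the number of genes at each bar and dashed lines at the shares of all genes, 5.32% higher and 5.96% lower. Lists run from the highest median difference at the top to the lowest at the bottom.

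The plot of calls per gene list shows at its bottom the lists with more lower than higher genes. The immediate-early and AP-1 genes, which growth factor signals switch on within minutes, had 0 higher and 15 lower of 22, with a median of −0.87, and 12 lower without the block. Egr1, a zinc finger factor of the early growth response, had 3.94, 4.27 and 3.78 under glucagon, against 7.76, 7.03 and 7.40 under insulin. The glucagon arrays were close to background, the groups lay apart, and the fall was −3.40 (SE 0.18, adjusted p = 7.2e-11). Ier3, an early survival gene, fell by 2.49 (SE 0.51, adjusted p = 0.0023), with 7.59, 8.36 and 8.47 under glucagon, against 10.57, 10.70 and 10.63 under insulin. Its call was lost without experiment 2. Ier2 fell by 2.29 (SE 0.22, adjusted p = 4.4e-07), and the stress factor Atf3 by 2.07 (SE 0.21, adjusted p = 7.7e-07).

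Ligands of the EGF receptor and feedback genes of the MAPK pathway had 3 higher and 9 lower of 23, and 0 and 6 without the block. Hbegf, a ligand of that receptor, had 4.28, 4.72 and 4.63 under glucagon, against 7.07, 7.18 and 7.33 under insulin, and fell by 2.65 (SE 0.15, adjusted p = 2.7e-10). Phlda1 had 3.88, 4.91 and 5.13, against 7.52, 7.10 and 7.46, and fell by 2.72 (SE 0.38, adjusted p = 4.6e-05). For both genes every glucagon array was below every insulin array. Dusp6, a phosphatase that switches off ERK, fell by 1.72, though by 0.80 where its probe sets were averaged, and the inhibitor Spry1 fell by 1.44. Egfr, the receptor, rose by 0.36 and Errfi1, its inhibitor, by 0.47, and both calls were lost without the block.

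Genes of the YAP and TEAD pathway and the cytoskeleton had 0 higher and 13 lower of 21, with a median of −0.54, and 8 lower without the block. Rrad, a small GTPase that inhibits calcium channels in heart and muscle, had 3.53, 4.20 and 3.32 under glucagon, against 7.31, 8.14 and 6.43 under insulin. The groups lay apart, with experiment 2 the highest in both, and the difference in level was −3.61 (SE 0.33, adjusted p = 2.6e-07). The glucagon mean lay at background. Ccn2 and Ankrd1, widely used readouts of YAP, fell by 1.94 and 1.92; the fall of Ccn2 was 1.15 where its probe sets were averaged, and Ankrd1 was not called without experiment 2.

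Chemokines and other genes that NF-kB is known to drive had 1 higher and 14 lower of 30, with a median of −0.58, and 1 and 11 without the block. Without experiment 1 or without experiment 2, 9 or 8 genes of the list were called, and without experiment 3 it was 19 (1 higher and 18 lower). Cxcl2, a neutrophil chemokine, had 3.13, 3.44 and 3.60 under glucagon, against 5.68, 5.92 and 8.12 under insulin. All glucagon arrays lay at background and below the insulin arrays, of which experiment 3 was the highest. The fall was −3.19 (SE 0.58, adjusted p = 7.4e-04). Its neighbour Cxcl1 had 4.45, 5.64 and 6.06, against 7.87, 8.61 and 8.75, and fell by 3.03 (SE 0.69, adjusted p = 0.0053), a call that was lost without experiment 1 or without experiment 2. Il23a, a subunit of interleukin 23, fell by 3.09 (SE 0.40), Csf1, the macrophage growth factor, by 3.00 (SE 0.34) and the adhesion molecule Icam1 by 2.32 (SE 0.45). Bcl3, an atypical IkB protein, was the member that rose, by 0.67 (SE 0.14, adjusted p = 0.0026), with 8.58, 8.35 and 8.32 under glucagon, against 7.87, 7.76 and 7.60 under insulin.

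The promoters of Cxcl1, Cxcl2 and Icam1 are shown because GGANTTTCC, a form of the NF-kB motif, was found in 5 of the 9 largest falls that had a promoter sequence and in 0 of the 15 largest rises. The other two of those 5 are Csf1 and Ier3. The strands, span and source are as above, and capitals mark the motif on either strand. The promoters are Cxcl1 at chr5:90890995-90891294 (plus strand), Cxcl2 at chr5:90903649-90903948 (plus) and Icam1 at chr9:21015690-21015989 (plus).
Cxcl1: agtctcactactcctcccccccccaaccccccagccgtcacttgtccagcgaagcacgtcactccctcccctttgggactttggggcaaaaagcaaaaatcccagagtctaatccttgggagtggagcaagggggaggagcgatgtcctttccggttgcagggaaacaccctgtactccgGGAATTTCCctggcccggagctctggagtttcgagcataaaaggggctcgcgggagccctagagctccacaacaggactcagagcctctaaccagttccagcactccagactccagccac
Cxcl2: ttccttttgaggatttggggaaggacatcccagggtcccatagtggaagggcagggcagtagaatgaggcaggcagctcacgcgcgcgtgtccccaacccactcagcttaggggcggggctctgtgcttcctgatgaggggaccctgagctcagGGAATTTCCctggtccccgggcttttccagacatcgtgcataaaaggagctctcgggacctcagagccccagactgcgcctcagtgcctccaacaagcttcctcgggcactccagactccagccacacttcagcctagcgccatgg
Icam1: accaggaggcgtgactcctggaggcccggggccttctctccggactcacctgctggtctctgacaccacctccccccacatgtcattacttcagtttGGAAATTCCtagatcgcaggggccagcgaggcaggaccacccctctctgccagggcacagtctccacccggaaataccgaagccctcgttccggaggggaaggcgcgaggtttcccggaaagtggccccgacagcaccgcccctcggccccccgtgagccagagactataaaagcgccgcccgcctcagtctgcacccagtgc
The matches begin 70, 96 and 153 bases before the start. Cxcl1 and Cxcl2 carry the same letters within the motif, and the match in Icam1 reads on the other strand. Cxcl1, Cxcl2 and Icam1 were picked for the match, and they and Csf1 are members of the chemokine list. GGANTTTCC was in 38.1% of the promoters of genes over 4-fold lower and 0% of those of genes over 4-fold higher, beside 1.35% of all promoters. A match describes these sequences and does not mark a binding site.

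**Figure D3:**
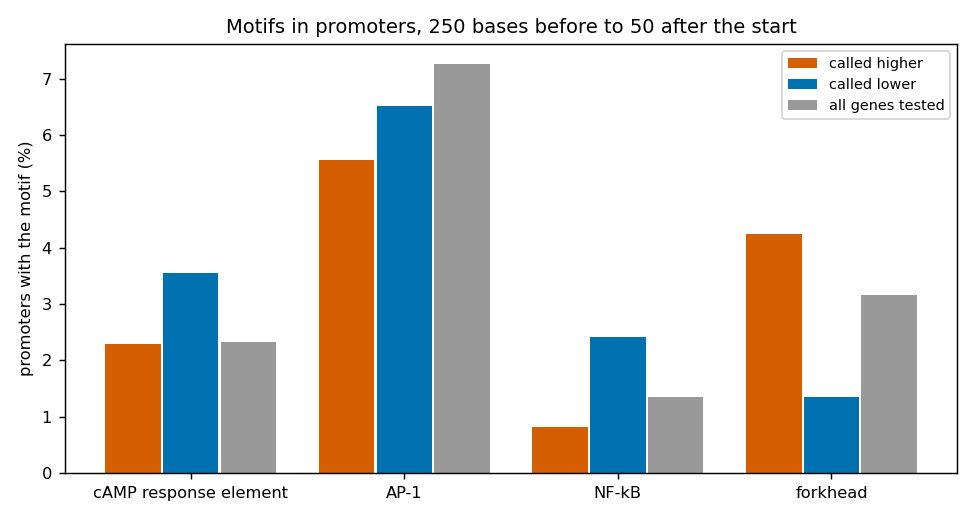
Share of promoters (percent, vertical axis) with each of 4 motifs on either strand, for genes called higher under glucagon, genes called lower and all genes tested. The NF-kB bar is tallest for the lower genes (2.41%) and the forkhead bar for the higher genes (4.25%).

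Across all called genes these motifs were rare. RefSeq promoters matched 941 of the 1179 higher genes, 1080 of the 1321 lower genes and 16990 of all 22180. Both strands were searched, and matches of different motifs may overlap. GGANTTTCC was in 0.818% of the promoters of higher genes and 2.41% of those of lower genes, beside 1.35% of all promoters. TGTTTAC, a forkhead motif, was in 4.25% and 1.35%, beside 3.15% of all. The full cAMP response element TGACGTCA was in 2.29% and 3.55%, beside 2.32%, and the AP-1 motif TGANTCA in 5.56% and 6.53%, beside 7.26%. The plot of motifs in promoters shows these shares, which are a description of the letters in these windows with no test.

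**Figure D4:**
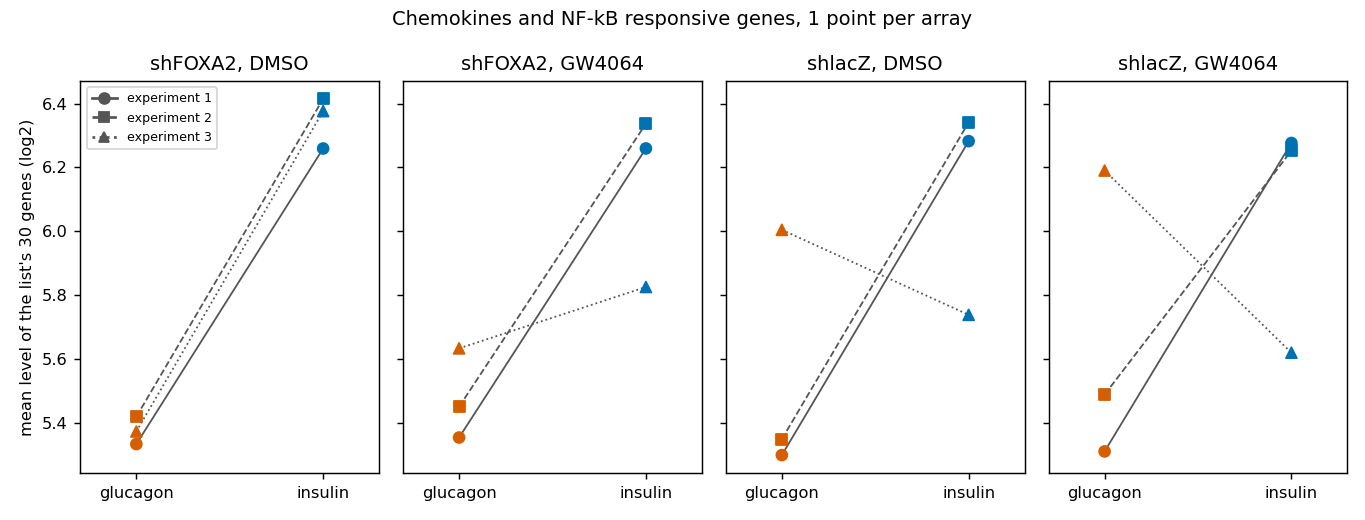
Mean level (log2, vertical axis) of the 30 chemokine and NF-kB responsive genes on each array, by hormone, with lines joining the 2 arrays of an experiment and a panel for each hairpin and solvent. In experiments 1 and 2 the glucagon array is the lower in every panel; in experiment 3 it is as much lower with shFOXA2 and DMSO, and higher in both shlacZ panels.

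The chemokine list behaved alike in the 3 experiments with shFOXA2 and DMSO. Its mean level was lower under glucagon by 0.92, 0.99 and 1.00 in experiments 1 to 3, and 24, 24 and 25 of the 30 genes were below their insulin level. The shlacZ pairs with DMSO differed by −0.98, −0.99 and 0.27, with 25, 26 and 6 of the 30 genes lower. The shFOXA2 pairs with GW4064 differed by −0.90, −0.89 and −0.19, as the plot of that list's mean level shows. In experiment 3, the shFOXA2 insulin array with DMSO averaged 6.38, against 5.62 to 5.83 on the other 3 insulin arrays. The glucagon array of that pair averaged 5.37, against 5.63 to 6.19 on the other 3 glucagon arrays. Icam1 shows the pattern in 1 gene: its differences were −2.44, −2.03 and −2.50 with shFOXA2 and −2.18, −2.01 and 0.38 with shlacZ, both with DMSO. Cxcl1 gave −3.42, −2.97 and −2.69 with shFOXA2 and −2.94, −2.89 and 0.89 with shlacZ. The difference between the hairpins' responses did not pass the test for any gene of the list, at −1.05 (SE 0.64, adjusted p = 0.664) for Icam1 and −1.38 (SE 0.98, adjusted p = 0.704) for Cxcl1. Without the shFOXA2 DMSO arrays of experiment 3, the list had 1 higher and 12 lower genes, and without the shlacZ DMSO arrays of that experiment 1 and 15. Experiment 3 was also the one in which Foxa2 differed least between the hairpins, and the part of either in the other was not tested.

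Stress genes of the ATF4 pathway had 1 higher and 9 lower of 21, with a median of −0.29, and 0 and 8 without the block. Ppp1r15a, which reverses the block of translation under stress, fell by 1.22 (SE 0.11, adjusted p = 1.5e-07), with 5.74, 5.59 and 6.11 under glucagon, against 6.93, 6.96 and 7.22 under insulin. Ddit3, the factor CHOP, fell by 1.18 and Sesn2, an inhibitor of mTORC1, by 1.13, while Dnajb9, a chaperone of the endoplasmic reticulum, rose by 0.80 and was not called without the block. Of 13 genes of the NRF2 response, 3 were higher and 1 lower, and 1 and 1 without the block. Osgin1, a growth inhibitor induced by oxidative stress, fell by 2.40 (SE 0.12, adjusted p = 7.2e-11), with 8.39, 7.53 and 7.08 under glucagon, against 10.73, 10.02 and 9.46 under insulin. Experiment 1 was the highest and experiment 3 the lowest in both groups. Gclc, the limiting enzyme of glutathione synthesis, rose by 1.13, a call lost without experiment 2, and Hmox1, the haem oxygenase, by 0.92, a call lost without the block.

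Acute phase genes had 4 higher and 1 lower of 20, and 1 and 1 without the block. Hamp, the iron hormone hepcidin, had 9.81, 10.63 and 10.14 under glucagon, against 7.59, 7.89 and 8.34 under insulin, with no overlap, and rose by 2.25 (SE 0.42, adjusted p = 8.4e-04); it was not called without experiment 2. The receptor Il1r1 fell by 0.71, a call lost under 3 of 18 alternative fits. Secreted plasma proteins were nearly all without a call: 2 of 18 were higher, the clotting factors F5 at 0.72 and F9 at 0.52, and F9 was not called without the block.

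Transcription factors of liver identity had 5 higher and 0 lower of 20, and 4 higher without the block. Foxa1, the close relative of the hairpin's target, rose by 1.19 (SE 0.09, adjusted p = 3.1e-08), with 7.40, 7.42 and 7.62 under glucagon, against 6.28, 6.11 and 6.48 under insulin. Foxa3 had 6.64, 6.52 and 6.85, against 6.90, 6.37 and 7.02, and did not pass (−0.10, SE 0.11, adjusted p = 0.72). The arrays of Foxa1 lay apart by hormone and those of Foxa3 overlapped. Onecut1 and Prox1, factors of liver development, rose by 1.45 and 1.32, and Hnf4a, a nuclear receptor of hepatocyte identity, by 0.96 with a call that was lost without the block.

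Bile acid genes had 4 higher and 2 lower of 21, with 6 at background in both groups, and 2 and 1 were called without the block. The lower genes were Abcb11 and Osgin1, and the 1 left without the block was Osgin1. That gene is also in the NRF2 list, where its fall is given above. Nr1h4, the receptor FXR, had 5.44, 5.62 and 5.50 under glucagon, against 6.07, 5.28 and 5.82 under insulin, with overlapping groups and no call (−0.21, SE 0.23, adjusted p = 0.70). Abcb11, the bile salt export pump, had 3.89, 4.01 and 4.59 under glucagon, against 4.35, 5.11 and 5.83 under insulin. It was lower under glucagon in each experiment and fell by 0.93 (SE 0.14, adjusted p = 1.4e-04), a call lost without the block. Nr0b2 and Cyp7a1, a repressor and the limiting enzyme of bile acid synthesis, lay at background on all 6 arrays. Slco1a4, an organic anion carrier, rose by 1.94.

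Of 17 clock genes, 4 were higher and 2 lower, and 2 and 1 without the block. Cry2, a repressor of the clock, rose by 1.49 (SE 0.12, adjusted p = 6.7e-08), with 6.77, 6.45 and 7.14 under glucagon, against 5.42, 4.82 and 5.65 under insulin. Rora, an activator of the clock, rose by 0.50, and Nr1d1 and Ciart, which are repressors, fell by 0.77 and 0.61. The call of Nr1d1 was lost without the block, and those of Rora and Ciart under 3 and 2 of 18 alternative fits. The arrays of Cry2 lay apart by hormone. Interferon genes had 1 higher and 1 lower of 16 (Stat2 at 0.43 and Ddx58 at −0.52). Cell cycle genes had 0 higher and 1 lower of 13 (Ccnd1 at −0.69). Over all genes the shares were 5.32% higher and 5.96% lower, so these counts set neither list apart. Stat2, Ddx58 and Ccnd1 were not called without the block.

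Markers of other liver cells were mostly at background. All 9 lymphocyte and all 7 neutrophil markers lay there in both groups, as did 8 of 11 macrophage and Kupffer cell markers, and none of these 27 genes was called. Mean levels of the macrophage list ranged from 3.80 to 3.98 on the glucagon arrays and from 3.68 to 4.06 on the insulin arrays. Cd68 had 8.90, 8.50 and 9.89 under glucagon, against 8.59, 7.86 and 9.96 under insulin, and Cd14 8.01, 7.76 and 8.05, against 7.48, 7.11 and 8.17. The groups overlapped for both. Of 10 stellate cell markers 7 lay at background, and Dcn rose by 0.53. Of 10 endothelial markers 4 lay there, and Cdh5 rose by 0.33. Of 5 cholangiocyte markers 3 lay at background; Sox9 fell by 1.40 and Krt19 by 0.53, while the mean of that list ranged from 3.79 to 3.91 under glucagon and from 4.00 to 4.46 under insulin. None of these 4 calls held without the block.

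**Figure D5:**
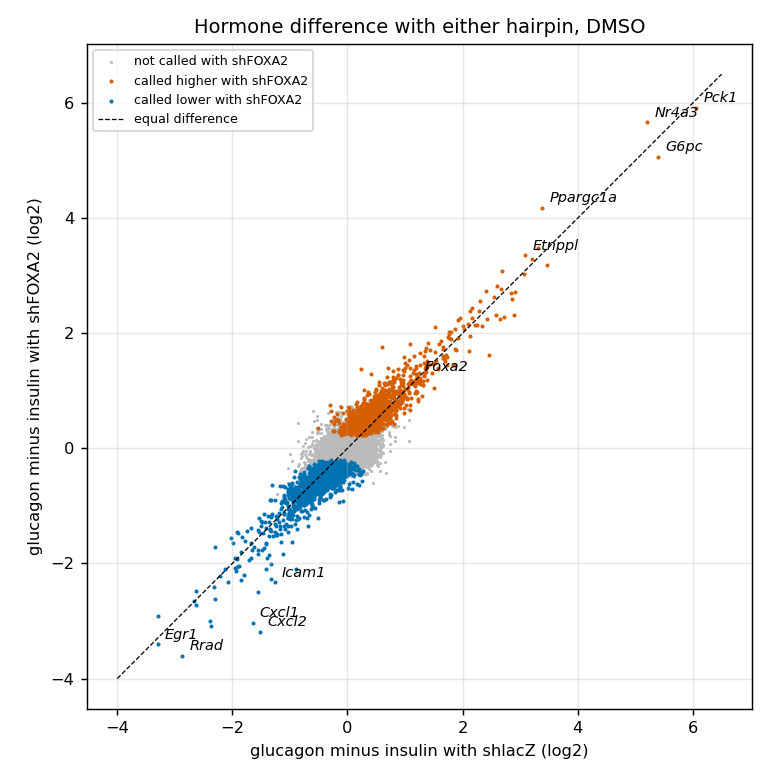
Glucagon minus insulin difference (log2) of each of 22180 genes with shFOXA2 (vertical axis) against that with shlacZ (horizontal axis), both with DMSO, with genes coloured by their call with shFOXA2 and a dashed line of equal differences. Points lie along that line, with Cxcl1, Cxcl2 and Icam1 below it and Ppargc1a above it.

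The same hormone difference was measured with shlacZ on other arrays of the same 3 cell pools. There, 2481 genes were called (11.2%), 1033 higher (4.66%) and 1448 lower (6.53%), and 1.78% of all genes were higher and 2.36% lower by over 1.5-fold. Of the 2500 genes called with shFOXA2, 1520 were called the same way with shlacZ, 635 higher and 885 lower, which is 60.8% of the shFOXA2 list and 61.3% of the shlacZ list. The single gene called in opposite directions was Gm13034, at 0.36 with shFOXA2 and −0.52 with shlacZ. Across all genes the differences correlated at r = 0.770, as a description of genes that share cell pools. The median difference of the genes called higher with shFOXA2 was 0.54 with that hairpin, which chose them, and 0.39 with shlacZ, and that of the lower genes was −0.51 and −0.45.

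Whether the hormone difference itself depended on the hairpin was tested for each gene. Of 22180 genes, 0 passed (0.00%), with 1921 (8.66%) at an unadjusted p under 0.05 and a smallest adjusted p of 0.166. The median SE of this test was 0.152, which limits how small a difference between the hairpins it could call. Pck1 responded by 5.92 with shFOXA2 and 6.06 with shlacZ, a difference of −0.14 with a 95% interval of −1.28 to 1.00. G6pc responded by 5.07 and 5.39, a difference of −0.32 with an interval of −1.41 to 0.76. Ppargc1a responded by 4.18 and 3.38, and its difference of 0.80 (SE 0.29, adjusted p = 0.458), higher with shFOXA2 in all 3 experiments, had an interval of 0.21 to 1.40 before adjustment. Among the genes of smallest p, Tlnrd1 responded by −0.70 with shFOXA2 and 0.08 with shlacZ, and Fundc2 by 0.30 and −0.52, each with adjusted p = 0.166.

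With GW4064 in place of DMSO, shFOXA2 cells had 2027 called genes (9.14%), 906 higher (4.08%) and 1121 lower (5.05%), and 1.79% of all genes were higher and 1.96% lower by over 1.5-fold. Of these, 1467 were called the same way with DMSO, which is 72.4% of the GW4064 list and 58.7% of the DMSO list. The test of the difference called 0 genes (0.00%), with 1120 (5.05%) at an unadjusted p under 0.05. Id2, an inhibitor of basic helix-loop-helix factors, had the smallest adjusted p along with others, 0.434. It responded by 1.46 with GW4064 and by 2.73 with DMSO, where it had 8.67, 8.70 and 9.30 under glucagon, against 6.31, 5.82 and 6.36 under insulin. The response was the smaller with GW4064 in all 3 experiments, by 1.27 (SE 0.24). Pck1 differed by 0.06 between the solvents, with an interval of −1.07 to 1.20, and G6pc by 0.14, with an interval of −0.94 to 1.22.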

How the data were processed

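RNA of 24 samples was measured on Affymetrix MoGene 2.0 ST arrays, 3 per group. The authors deposited log2 expression values, processed in GeneSpring with technical replicates pooled, per the series' design text. The background correction and normalization were not given in the sources used here. The log base was taken from the range of the values (1.46 to 13.5). Of 41345 probe sets, 23521 had 1 gene symbol in the platform annotation, 1814 had several and 16010 had none. The probe set with the highest mean stood for each of 22180 genes.

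limma 3.58.1 (R 4.3.3) was fitted to all 24 arrays with a mean per group and the experiment as a block, because each experiment was 1 pool of cells and the comparison is paired. Arrays of the same experiment deviated from their group means together in 84 of 84 pairs (r = 0.374 to 0.698). Every adjusted p is limma's, two-sided, with Benjamini-Hochberg adjustment over 22180 genes. The precision is limited by 3 arrays a group. The genes that could be named were the 15 largest rises and the 15 largest falls among called genes with the same sign in 3 experiments, up to 4 called members per list and direction (where fewer than 2 were called, the 2 largest differences), 20 genes picked whatever their values, and the 5 with the smallest p in each test of a difference between responses. The members and gene lists were chosen with earlier results of these data known. Promoters are RefSeq's, on GRCm38.p6. Alternatives were a fit with no block, the 6 arrays alone, other scalings, a filter on dim genes, averaged probe sets and arrays left out. Figures were drawn with matplotlib 3.10.9.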

Additional observations from a re-analysis of the deposited data

Results flagged for a closer look

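For some genes all 3 experiments moved one way in 1 setting and the opposite way in another. None of these differences passed limma's test of the difference itself, whose smallest adjusted p was 0.166 between hairpins and 0.434 between solvents. Gm13034 responded to glucagon against insulin by 0.36 with shFOXA2 and by −0.52 with shlacZ, a difference of 0.88, and its response with GW4064 minus that with DMSO was −0.64. Tlnrd1, a talin rod domain protein, differed between the hairpins' responses by −0.78. The vomeronasal receptor genes Vmn1r89 and Vmn1r31, of a family known from the vomeronasal organ, differed by −0.66 each, and Vmn1r31 also by 0.91 between GW4064 and DMSO. Both genes had a mean over the 24 arrays at or below the background of 3.70. Among the probe sets without a gene symbol, which entered no comparison above, 193 were higher and 128 lower under glucagon, 2.01% of 16010.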

How the results depend on the processing

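Of the 131 called genes that the naming rule picked, 66 were called the same way under all 18 alternatives, 65 lost the call under at least 1, 51 of them without the replicate block, and 0 changed sign. Losses not given above include those of Dusp6, Ddit3 and Prox1, each under 2 alternatives, and of Onecut1, under 1. The 2500 calls became 1062 without the replicate block, 1239 when only the 6 arrays were fitted and 1054 when a change over 1.5-fold was also asked, and 1296 to 2223 when 1 array or 1 experiment was left out. Centring each array on its median gave 1088 higher and 1367 lower genes. Of the 18 alternatives, 2 were chosen after seeing the data. The 2500 calls with shFOXA2 became 1872 without the shFOXA2 DMSO arrays of experiment 3. They became 2435 without the shlacZ DMSO arrays of that experiment. Calls in the gene lists were 98 without the replicate block, against 176. The test of the hormone difference by hairpin called 0 to 1 genes when arrays were left out, the 1 being Vmn1r167 (−0.77, adjusted p = 0.0379) without the shFOXA2 glucagon array of experiment 3. The mean of Vmn1r167 over all arrays of the series was at or below the background. The 6 genes below, none of them called, changed sign. With arrays left out, Cyp7a1 ranged from −0.090476 to 0.030455, Foxa3 from −0.23112 to 0.00089619, Gcgr from −0.19162 to 0.25801, Hspa2 from −0.11716 to 0.12264, Nr1h4 from −0.48082 to 0.001335 and Pcx from −0.09237 to 0.17216. With arrays centred, Hspa2 was at −0.0012533 and Pcx at −0.0085933. Signal near background limits the folds of genes that lie there in 1 group.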
